A study of Mus musculus with 6 samples.

Results

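The genes described are the 8 mouse genes that encode the sarcomeric myosin heavy chains of skeletal and cardiac muscle: *Myh3*, *Myh8*, *Myh2*, *Myh1*, *Myh4*, *Myh7*, *Myh6* and *Myh7b*. They were chosen by name, and make up 8 of the 55401 genes of the deposited count matrix. All 8 passed the filter on low counts, which left 17310 genes for testing. The question was how the loss of *Phf2*, which encodes a histone demethylase of H3K9me2, bears on the expression of this family in differentiating muscle cells.

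RNA of C2C12 cells, mouse myoblasts that stop dividing and fuse into myotubes in low serum, was sequenced at 2 d post differentiation in 2% horse serum. The *Phf2* KO cells had received Cas9 and 4 pooled guide RNAs against *Phf2*. The control cells, which the labels call wild type, had received the same kind of plasmid with a guide RNA that matches no mouse sequence. Each group had n = 3 libraries. Both groups were sorted for the plasmid's fluorescence and expanded as a pool without single-cell cloning, so the *Phf2* KO cells are a mixture, and a difference between the 2 pools cannot be told apart from an effect of *Phf2*. The paper describes the libraries of a group as wells from the same experiment and mentions no separate pools for them. The p-values therefore measure the spread between wells within that experiment, and not the spread between separate pools. *Phf2* itself stood at 102, 95.5 and 105 CPM (estimated counts relative to the TMM-scaled library total) in the control libraries and at 41.1, 37.6 and 38.6 CPM in the *Phf2* KO libraries. Library totals lay between 52526109 and 67502788 estimated counts. In bulk RNA, fewer differentiated cells and less RNA per differentiated cell cannot be told apart.

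Myosin heavy chain is the motor of the thick filament. Its globular head binds actin and splits ATP, and its long tail coils with a second heavy chain and packs into the filament. Mammals carry a separate gene for each main isoform, and the isoform that a fibre makes is a main determinant of how fast it contracts. Developing muscle makes the embryonic form (*Myh3*) and the perinatal form (*Myh8*), which give way to the adult fast forms 2A (*Myh2*), 2X (*Myh1*) and 2B (*Myh4*). *Myh7* encodes the slow form, which is also the beta form of the heart, *Myh6* the alpha form of the heart, and *Myh7b* a slow tonic form that also hosts a microRNA.

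In the mouse the embryonic, perinatal and adult fast genes lie in a row on the plus strand of chromosome 11. In GENCODE M21 (GRCm38, the assembly also called mm10), *Myh3* spans chr11:67078300-67102291, *Myh2* chr11:67171027-67197517, *Myh1* chr11:67200052-67224575, *Myh4* chr11:67238029-67260446 and *Myh8* chr11:67277124-67308634. *Myh13*, the extraocular muscle form, follows them. *Myh6* (chr14:54941921-54966927) and *Myh7* (chr14:54970684-54994626) are neighbours on the minus strand of chromosome 14, and *Myh7b* stands alone at chr2:155611212-155634307. The longest coding transcripts were alike in size, from 6016 to 6230 nt in 39 to 42 exons.

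The coding sequences are also alike, which matters for how reads are shared out between the genes. Over the 28 pairs of members, the identity of the aligned coding sequences ran from 69.0% to 91.5%, with a median of 77.8%. *Myh7* and *Myh6* were 91.5% identical and *Myh2* and *Myh1* 91.0%. For 3 pairs whose genes meet in the assembled loci described further on, the longest stretch held letter for letter by both is printed here, because a read that lies inside it fits both genes. The capitals mark the run that both transcripts hold, and the lower case letters are the 10 bases on each side in the first-named gene. All 3 runs are coding and each crosses an exon junction: exons 23 and 24 of *Myh2* (chr11:67188318-67188696, 268 nt, sense strand, with the intron between them left out), exons 32 and 33 of *Myh7* (chr14:54974947-54975347, 245 nt, minus strand) and exons 36 and 37 of *Myh3* (chr11:67099987-67100949, 167 nt). The same letters stand in exons 23 and 24 of *Myh1* (chr11:67213219-67213597), exons 30 and 31 of *Myh6* (chr14:54948327-54948725) and exons 35 and 36 of *Myh13* (chr11:67367264-67367708).
Myh2 (shared with Myh1): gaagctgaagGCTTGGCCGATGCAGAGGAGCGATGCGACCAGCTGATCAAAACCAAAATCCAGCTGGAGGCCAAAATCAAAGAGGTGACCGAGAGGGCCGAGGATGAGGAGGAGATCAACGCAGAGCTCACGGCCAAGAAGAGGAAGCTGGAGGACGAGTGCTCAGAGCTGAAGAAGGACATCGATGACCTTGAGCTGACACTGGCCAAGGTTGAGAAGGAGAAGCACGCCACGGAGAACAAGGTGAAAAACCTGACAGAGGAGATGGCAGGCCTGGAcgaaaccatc
Myh7 (shared with Myh6): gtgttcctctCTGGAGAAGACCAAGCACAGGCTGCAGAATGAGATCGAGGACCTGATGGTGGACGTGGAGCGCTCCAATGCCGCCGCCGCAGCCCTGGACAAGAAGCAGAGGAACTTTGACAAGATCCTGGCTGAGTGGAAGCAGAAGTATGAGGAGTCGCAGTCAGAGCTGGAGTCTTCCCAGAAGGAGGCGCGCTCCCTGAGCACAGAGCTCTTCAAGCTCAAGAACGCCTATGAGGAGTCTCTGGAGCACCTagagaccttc
Myh3 (shared with Myh13): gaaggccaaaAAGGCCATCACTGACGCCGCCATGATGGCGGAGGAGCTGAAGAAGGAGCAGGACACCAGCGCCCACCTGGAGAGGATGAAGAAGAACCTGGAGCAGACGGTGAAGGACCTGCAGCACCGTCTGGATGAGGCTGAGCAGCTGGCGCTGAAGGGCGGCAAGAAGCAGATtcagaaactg

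Of all windows of 75 bases in its longest coding transcript, *Myh1* shared 16.6% with another member or *Myh13*, *Myh2* 16.3%, *Myh6* 15.5%, *Myh7* 15.3%, *Myh8* 12.9% and *Myh4* 9.68%. *Myh3* shared 1.86% and *Myh7b* shared 0.0%. For windows of 150 bases, the length of 1 read, these shares were at most 5.53% (*Myh6*). The comparison covered exact matches among the members and *Myh13* alone. Within it, *Myh3* and *Myh7b* held almost only sequence of their own. Reads of *Myh1* and *Myh2*, of *Myh6* and *Myh7*, and of *Myh8* and *Myh4* with their neighbours could in part have gone to either gene. Those values are uncertain to that extent.

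**Figure D1:**
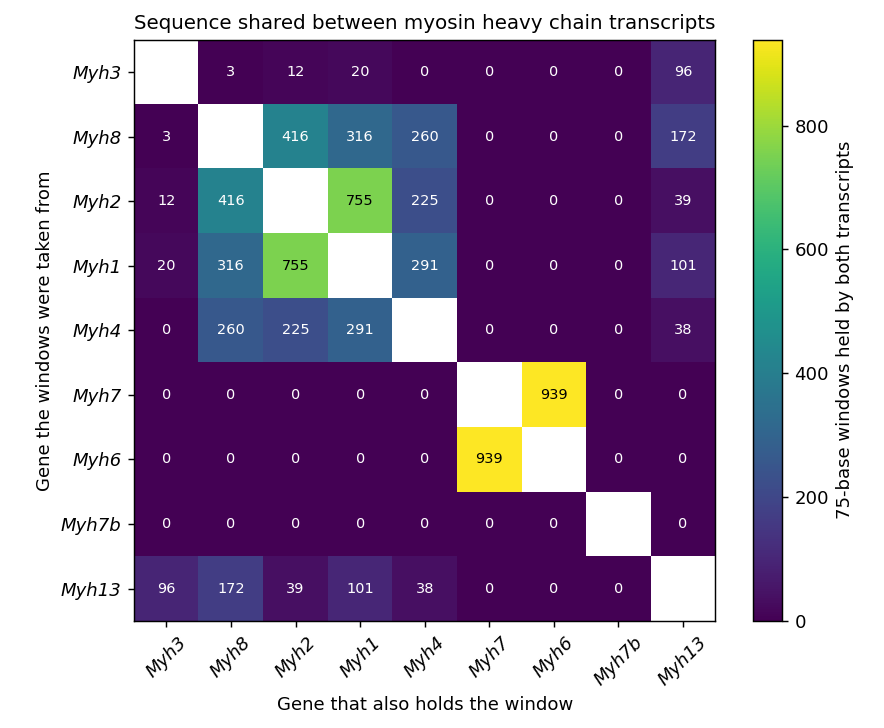
Number of 75-base windows of the transcript in each row that the transcript in each column also holds, for the 8 members and *Myh13*. The bright cells join *Myh7* with *Myh6* (939 windows) and *Myh2* with *Myh1* (755 windows), and the row of *Myh7b* holds only 0.

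Upstream sequences were compared because 5 of the members share a cluster and all 8 moved together, as described next. The windows are the bases before the RefSeq start of each gene (GRCm38.p6), and all 8 members were matched there. The 5 windows printed are on the plus strand. A run of 14 letters that was found by comparing the upstream windows of the cluster's genes, and so chosen after they were seen, stood in *Myh8*, *Myh2*, *Myh1* and *Myh4*. Among the 250 bases upstream of 32851 RefSeq entries, searched on both strands, those were the 4 entries that held it (0.0122%). A match to the MEF2 motif, the site of the MEF2 transcription factors, lay before the run in *Myh8*, *Myh1* and *Myh4*, whereas 2.92% of all entries held such a match. Capitals mark these MEF2 matches (the first run of capitals in *Myh8*, *Myh1* and *Myh4*) and the shared run. *Myh3*, which held neither, is printed for comparison. *Myh1* is shown without its last 50 bases and *Myh4* without its first bases, which are annotated exons.
Myh8 (chr11:67276874-67277123): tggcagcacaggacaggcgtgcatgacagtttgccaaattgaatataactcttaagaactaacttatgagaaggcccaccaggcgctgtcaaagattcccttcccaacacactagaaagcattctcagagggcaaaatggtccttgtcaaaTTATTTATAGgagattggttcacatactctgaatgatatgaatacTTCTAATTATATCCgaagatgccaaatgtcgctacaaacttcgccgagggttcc
Myh2 (chr11:67170777-67171026): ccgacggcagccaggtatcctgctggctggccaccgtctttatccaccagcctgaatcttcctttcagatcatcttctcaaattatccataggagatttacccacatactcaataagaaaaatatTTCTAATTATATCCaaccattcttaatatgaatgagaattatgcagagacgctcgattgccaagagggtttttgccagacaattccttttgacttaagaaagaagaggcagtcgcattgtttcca
Myh1 (chr11:67199852-67200051): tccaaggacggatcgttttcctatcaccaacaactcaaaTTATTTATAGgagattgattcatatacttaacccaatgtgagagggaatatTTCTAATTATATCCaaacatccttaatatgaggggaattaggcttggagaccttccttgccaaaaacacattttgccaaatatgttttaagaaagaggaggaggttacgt
Myh4 (chr11:67237574-67237811): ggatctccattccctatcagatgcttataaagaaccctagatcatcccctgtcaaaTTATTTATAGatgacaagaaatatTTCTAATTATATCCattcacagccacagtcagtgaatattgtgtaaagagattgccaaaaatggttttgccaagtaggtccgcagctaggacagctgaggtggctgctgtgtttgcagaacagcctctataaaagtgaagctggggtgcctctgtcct
Myh3 (chr11:67078050-67078299): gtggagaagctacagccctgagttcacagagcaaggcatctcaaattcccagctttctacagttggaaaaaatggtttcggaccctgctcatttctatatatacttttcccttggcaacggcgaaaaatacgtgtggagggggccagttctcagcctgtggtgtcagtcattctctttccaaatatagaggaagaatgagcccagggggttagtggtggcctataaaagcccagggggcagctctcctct

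The shared run began 54 bases before the RefSeq start in *Myh8*, 125 in *Myh2*, 160 in *Myh1* and 158 in *Myh4*. That start is chr11:67200102 in *Myh1* and chr11:67237812 in *Myh4*, where the GENCODE spans given above begin at 67200052 and 67238029. Distances of the run and of the MEF2 match in *Myh1* and *Myh4* thus depend on the annotation. The MEF2 match began 99 bases before the start in *Myh8*, 211 in *Myh1* and 182 in *Myh4*. Other motifs known from muscle genes were searched on both strands of the same windows. The E-box CANNTG stood in 6 members against 66.2% of all entries, and the MCAT motif CATTCC in 4 members against 12.6%. The CArG motif stood in 1 member, *Myh4*, against 1.47% of all entries, and the MEF3 motif TCAGGTT in 0 members against 3.49%. These matches describe the letters only, and binding was not measured in these files.

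Measured in CPM, the *Phf2* KO cells held less RNA of all 8 members, and none of the 8 had overlapping groups. On the authors' TPM, a signal scaled within each library, the groups of *Myh7* and *Myh6* overlapped. In edgeR's quasi-likelihood test, adjusted by Benjamini-Hochberg over the 17310 genes, all 8 passed the threshold of 0.05, where 3.26% of all genes tested were called lower and 3.22% higher. In CPM, the highest *Phf2* KO library was under the lowest control library in 8 of 8 members, as it was in 12.2% of all genes tested. The median log2 fold change of the members was −0.95, beside −0.001 over all genes tested. The falls were of unequal size. The perinatal gene *Myh8* was left at 29.6% of its control level and the embryonic gene *Myh3* at 73.5%, while the 6 adult and cardiac genes lay between 46.6% and 55.3%.

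**Figure D2:**
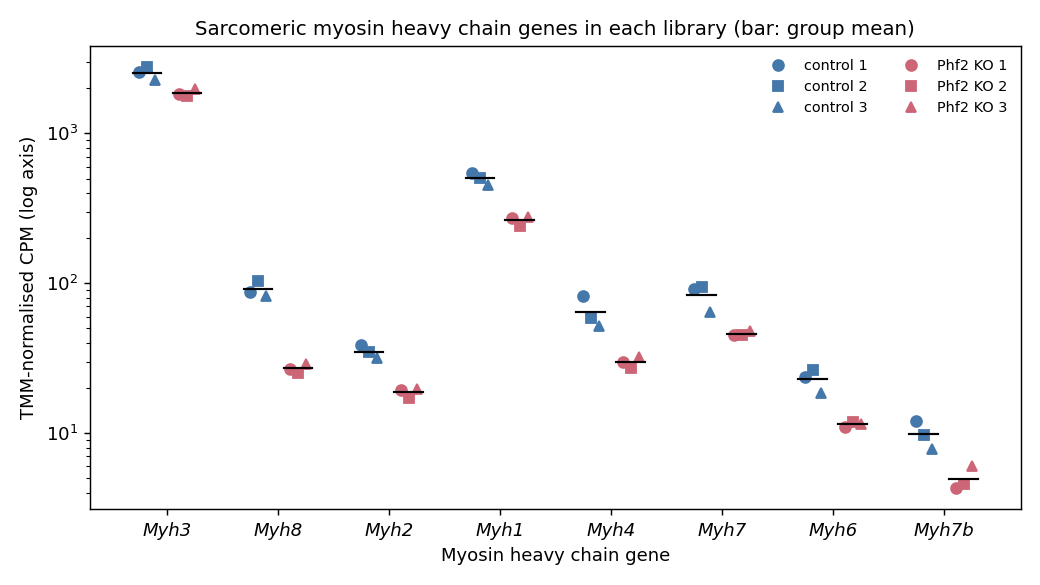
TMM-scaled CPM of each member in each of the 6 libraries on a log axis, control libraries in blue and *Phf2* KO libraries in red, with the group mean as a bar. For each of the 8 genes the 3 red points lie below the 3 blue points, with the widest gap for *Myh8*.

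Among the developmental genes, *Myh3* (ENSMUSG00000020908.14) was the most abundant member. It measured 2561, 2774 and 2287 CPM in the control libraries and 1845, 1790 and 1964 CPM in the *Phf2* KO libraries. The highest *Phf2* KO library lay 323 CPM under the lowest control library, and the log2 fold change was −0.44 (SE 0.070; edgeR adjusted p = 0.0102). Leaving out control library 1, *Phf2* KO library 1 or *Phf2* KO library 3 took the adjusted p to 0.128, 0.143 and 0.0791, while the log2 fold change remained between −0.48 and −0.44.

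*Myh8* (ENSMUSG00000055775.16) showed the largest fall of the family. It measured 88.0, 103 and 82.6 CPM in the control libraries and 26.7, 25.4 and 28.9 CPM in the *Phf2* KO libraries. The *Phf2* KO libraries lay close together and far under the controls, with a log2 fold change of −1.75 (SE 0.082; edgeR adjusted p = 5.47e-07). On the TPM of the deposited per-library tables the fall was smaller, with a log2 difference of −1.29, since *Phf2* KO library 3 stood at 10.6 TPM there against 6.08 and 5.02 TPM in libraries 1 and 2.

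Of the adult fast genes, *Myh1* was the most abundant. Its levels were 547, 506 and 450 CPM in the control libraries and 273, 240 and 278 CPM in the *Phf2* KO libraries. The groups stood 172 CPM apart, with a log2 fold change of −0.93 (SE 0.079; edgeR adjusted p = 3.07e-04). *Myh2*, its closest relative in sequence, measured 38.6, 34.6 and 31.7 CPM in the control libraries and 19.4, 17.2 and 19.8 CPM in the *Phf2* KO libraries. Its log2 fold change of −0.89 (SE 0.087; edgeR adjusted p = 5.24e-05) lay within 1 SE of that of *Myh1*, with which it shares windows.

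*Myh4*, the fastest of the adult forms, varied more between control libraries. It measured 82.0, 58.3 and 51.8 CPM in the control libraries and 29.9, 27.3 and 32.4 CPM in the *Phf2* KO libraries. Control library 1 stood above the other 2 controls, and no *Phf2* KO library reached a control library. The log2 fold change was −1.10 (SE 0.20; edgeR adjusted p = 0.0476). The call was close to the threshold: with the replicate number as a block the adjusted p was 0.0657, and without control library 2 or any single *Phf2* KO library it rose to between 0.111 and 0.169.

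Among the slow and cardiac genes, *Myh7* measured 91.1, 94.8 and 64.3 CPM in the control libraries and 45.5, 45.1 and 47.7 CPM in the *Phf2* KO libraries. Control library 3 was the lowest control, and the *Phf2* KO libraries were nearly level. The log2 fold change was −0.85 (SE 0.16; edgeR adjusted p = 0.0415). With the replicate block the adjusted p was 0.0873, and leaving out any single library other than control library 3 took it to between 0.0563 and 0.175.

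*Myh6* measured 23.8, 26.3 and 18.7 CPM in the control libraries and 10.9, 11.9 and 11.5 CPM in the *Phf2* KO libraries, with a log2 fold change of −1.0 (SE 0.12; edgeR adjusted p = 1.79e-04). On TPM its groups overlapped. The levels there were 7.81, 10.7 and 5.88 TPM in the control and 3.51, 3.86 and 9.78 TPM in the *Phf2* KO libraries. *Myh7b*, the lowest of the family, measured 12.01, 9.70 and 7.78 CPM in the control libraries and 4.29, 4.59 and 6.06 CPM in the *Phf2* KO libraries. Its highest *Phf2* KO library and its lowest control library were 1.72 CPM apart, and the log2 fold change was −0.98 (SE 0.18; edgeR adjusted p = 0.00540). In the edgeR test on estimated counts, both genes stayed past the threshold when any single library was left out. Their adjusted p-values in that test were at most 0.00459 for *Myh6* and 0.0391 for *Myh7b*. Markers of heart muscle were low in these cells. Of 8 such markers, 3 passed the filter and 0 were called in either direction by the edgeR test, and *Tbx5* and *Myl7* were at 0 in every library. The summed level of the list was 18.0 to 18.8 CPM in the control and 17.2 to 17.4 CPM in the *Phf2* KO libraries, without overlap. Most of it was *Gata4* (16.3 against 15.1 CPM, group means).

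Of the other genes for conventional (class II) myosin heavy chains, 5 were tested. Of these, 0 were called lower and 1 was called higher by the edgeR test, against 3.26% and 3.22% of all genes tested. *Myh15* held 0 counts throughout. *Myh10*, which encodes the heavy chain of non-muscle myosin IIB, measured 332, 325 and 328 CPM in the control libraries and 464, 434 and 472 CPM in the *Phf2* KO libraries, a log2 fold change of 0.48 (SE 0.042; edgeR adjusted p = 3.18e-05). *Myh9*, the heavy chain of non-muscle myosin IIA, measured 2583, 2668 and 2609 CPM against 2694, 2669 and 2649 CPM, with overlapping groups and an edgeR adjusted p of 0.703. *Myh11*, the smooth muscle form, and *Myh14*, a further non-muscle form, were below 1 CPM in every library, with overlapping groups.

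**Figure D3:**
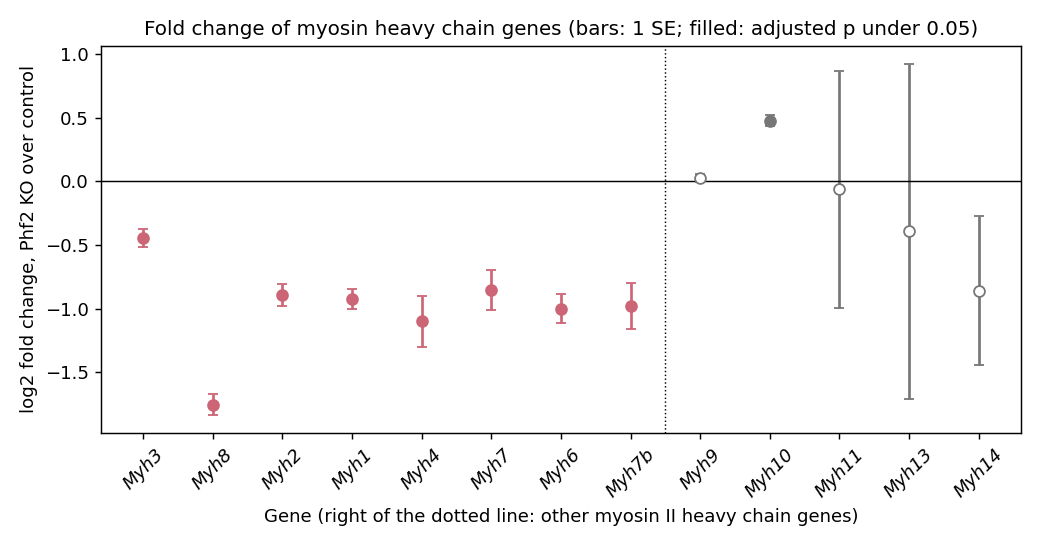
Log2 fold change of *Phf2* KO over control from the edgeR fit, with 1 SE, for the 8 members (left of the dotted line) and 5 other class II myosin heavy chain genes, filled where the adjusted p was under 0.05. The members lie between −1.75 (*Myh8*) and −0.44 (*Myh3*), whereas *Myh10* lies at 0.48 and *Myh13* has an SE of 1.3.

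*Myh13*, the next gene along the chromosome 11 cluster, had counts that followed neither group. It held 689, 285 and 97 estimated counts in the control libraries and 84, 55 and 788 in the *Phf2* KO libraries (edgeR adjusted p = 0.925). The same 2 libraries with the high counts, control 1 and *Phf2* KO 3, were the ones in which the authors' assembly joined the exons of *Myh3* to *Myh13* into a single locus of the plus strand. In control library 2, a joined locus held *Myh8*, *Myh4* and *Myh13*. Whether the shared run of *Myh3* and *Myh13* had a part in these counts was not tested.

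The make-up of the family was compared next, since unequal falls change which isoforms dominate. Each member's share of the family total was calculated on 2 scales that allow for length. That of *Myh8* is also given on coverage, the mean read depth per base. On the deposited TPM, *Myh3* made up 72.96%, 78.2% and 78.0% of the family in the control libraries and 82.9%, 83.9% and 79.9% in the *Phf2* KO libraries. *Myh1*, the runner-up, went from 15.7%, 14.6% and 15.2% to 12.2%, 11.3% and 11.5%. For *Myh3*, *Myh1*, *Myh8*, *Myh4* and *Myh2* the groups did not overlap (two-sided exact permutation test, p = 0.1 for each, the smallest that 3 against 3 can give), with *Myh3* up by 5.85 percentage points and the others lower. For *Myh7*, *Myh6* and *Myh7b* the TPM shares overlapped between the groups, with exact permutation p of 0.5, 1.0 and 0.2.

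Estimated counts per kb of the longest coding transcript were a scale added after seeing the data. On it the shares of *Myh3*, *Myh7*, *Myh6* and *Myh7b* were steadier than on TPM. The share of *Myh3* was 76.1% ± 1.34 (SD, n = 3) in the control and 82.5% ± 0.482 (SD, n = 3) in the *Phf2* KO cells, and the other 7 shares were all lower in the *Phf2* KO cells with no overlap (exact permutation p = 0.1 for each). *Myh8* went from 2.68% ± 0.151 to 1.17% ± 0.0177 and *Myh1* from 14.9% ± 0.924 to 11.5% ± 0.487. On coverage, also added after seeing the data, *Myh8* went from 1.47% ± 0.0807 to 0.648% ± 0.0112. The size of the *Myh8* share thus depends on the scale, while its direction does not. By class, the developmental forms together held 78.8% in the control and 83.6% in the *Phf2* KO cells, the adult fast forms 17.9% and 13.7%, and the slow and cardiac forms 3.36% and 2.69%. The developmental class rose by its larger gene alone, since *Myh8* fell.

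The order of the members by count per kb also changed in 1 place. In the control cells it ran *Myh3*, *Myh1*, *Myh8*, *Myh7*, *Myh4*, *Myh2*, *Myh6* and *Myh7b*. The shares of *Myh8* and *Myh7* overlapped there, and so did those of *Myh7* and *Myh4*, so these neighbours did not differ beyond their spread. In the *Phf2* KO cells *Myh8* came after *Myh4*, with 1.15% to 1.19% against 1.27% to 1.36%, and no neighbours overlapped. On TPM *Myh8* stood below *Myh4* in both groups, at 1.42% to 1.53% against 1.66% to 2.37% in the control cells, so the change of place holds for the count scale alone.

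The ratio of each member to *Myh3* within the same library shows the unequal falls without a scaling between libraries. On estimated counts the log2 ratio of *Myh8* to *Myh3* was −4.86, −4.75 and −4.79 in the control libraries and −6.11, −6.14 and −6.09 in the *Phf2* KO libraries, a difference of −1.31. The other 6 members differed by between −0.64 (*Myh4*) and −0.39 (*Myh7*). All 7 ratios were lower in each *Phf2* KO library than in each control library (two-sided exact permutation test, p = 0.1 for each, the smallest possible). On TPM, 4 of the 7 ratios kept separate groups: *Myh8* (−0.93), *Myh4* (−0.63), *Myh1* (−0.49) and *Myh2* (−0.45). The TPM ratios of *Myh7*, *Myh6* and *Myh7b* overlapped, with exact permutation p of 0.5, 0.7 and 0.2.

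**Figure D4:**
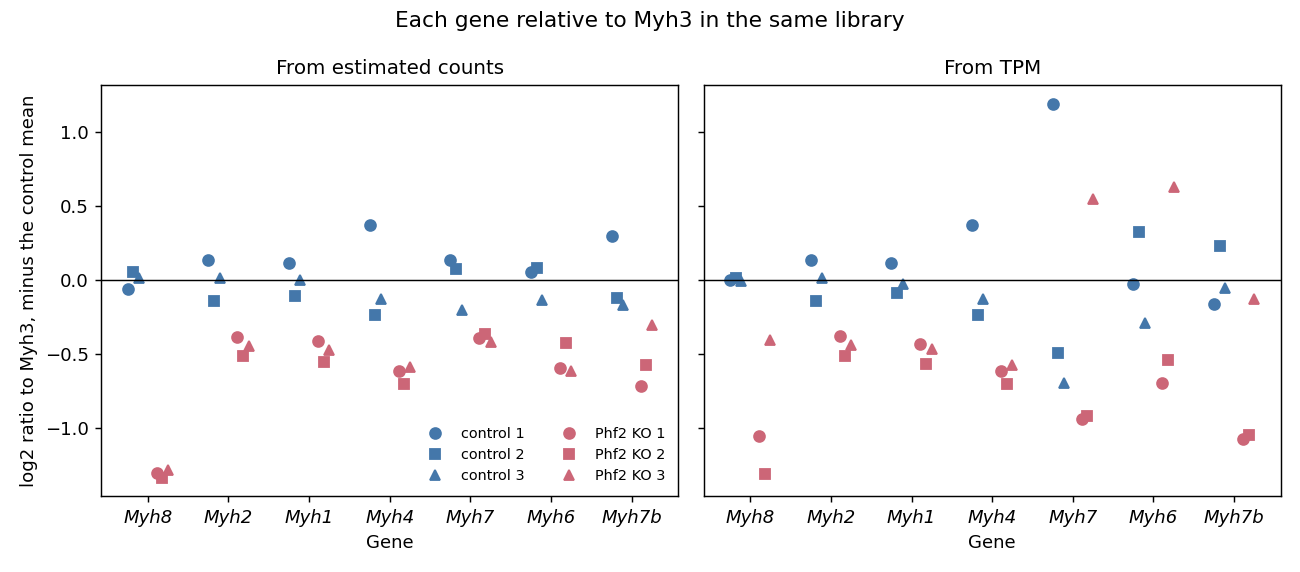
Log2 ratio of each gene to *Myh3* in the same library, minus the mean of the control libraries, from estimated counts (left) and from deposited TPM (right), control libraries in blue and *Phf2* KO libraries in red. On counts all red points lie below all blue points for the 7 genes, whereas on TPM control library 1 and *Phf2* KO library 3 stand high for *Myh7*.

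The 2 scales came apart for particular genes and libraries. The deposited TPM divided by the CPM per kb was steady over the libraries for *Myh3* (2.13 to 2.22), *Myh2* (1.81 to 1.90), *Myh1* (2.13 to 2.28) and *Myh4* (2.15 to 2.26). For *Myh7* it was 4.85 in control library 1 and 4.69 in *Phf2* KO library 3, and 1.56 to 1.67 in the other 4. For *Myh6* it was 5.22 in *Phf2* KO library 3 and 1.93 to 2.50 elsewhere. *Myh8* was also highest in that library, at 2.26, a value within the ranges of *Myh1* and *Myh4*. In the other libraries *Myh8* was at 1.15 to 1.40, under the values of the genes named as steady. For *Myh7b* it was 3.65 in control library 2, 3.12 in control library 3 and 3.35 in *Phf2* KO library 3, and 2.08 to 2.21 in the other 3, a pattern unlike that of *Myh7*. The raised *Myh7* values thus fell in 1 library of each group, and *Myh7* measured 70.9, 23.8 and 17.3 TPM in the control libraries and 11.5, 11.5 and 35.9 TPM in the *Phf2* KO libraries.

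In the same 2 libraries the authors' tables list a short assembled locus of 807 bases inside *Myh7*, at chr14:54972722-54973528 on the minus strand, with 51.7 TPM in control library 1 and 25.2 TPM in *Phf2* KO library 3. The other 4 libraries list no such locus. Its coverage, the mean read depth per base, was 103 and 57.4, against 45.2 and 28.1 for the row of *Myh7* in the same libraries. For *Myh7*, *Myh6* and *Myh7b* the shares of the groups did not overlap on counts per kb and overlapped on TPM. The account of these genes thus depends on the scale. The part of this locus in the TPM values was not tested.

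**Figure D5:**
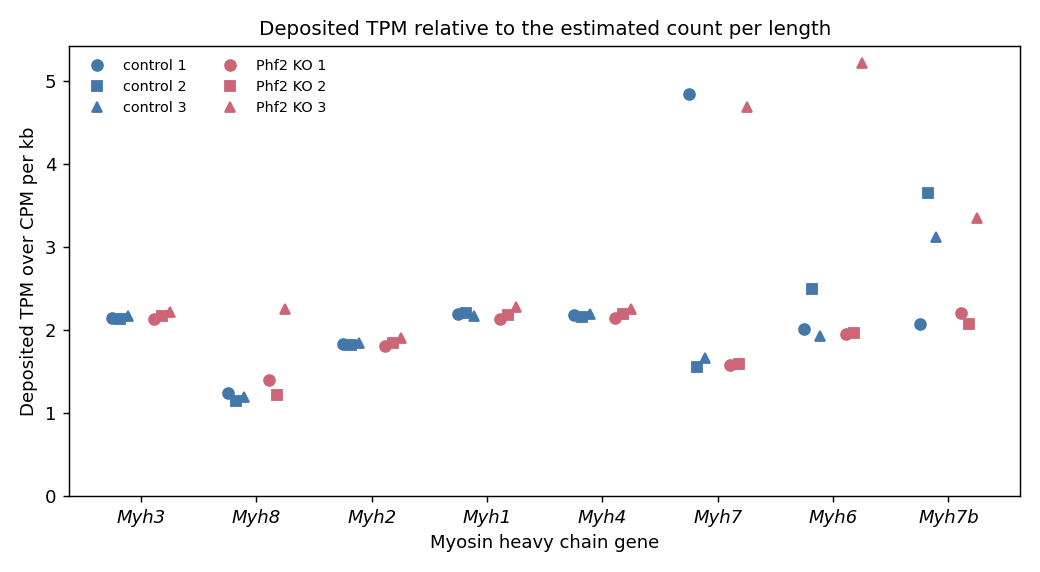
Deposited TPM divided by TMM-scaled CPM per kb for each member in each library, control libraries in blue and *Phf2* KO libraries in red. *Myh3*, *Myh2*, *Myh1* and *Myh4* lie in narrow bands near 2, while *Myh7* stands at 4.85 in control library 1 and 4.69 in *Phf2* KO library 3, and *Myh6* at 5.22 in *Phf2* KO library 3.

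Assembled loci also joined the paralogs elsewhere. *Myh7* and *Myh6* stood in a joined locus in all 6 libraries. In control libraries 2 and 3 and *Phf2* KO libraries 1 and 2, a fragment of 495 to 520 bases over exons 23 and 24 of *Myh2* was listed as a locus of its own, beginning at or just after the first base of the printed run that *Myh2* shares with *Myh1*. Its coverage was 322, 316, 202 and 158 in these libraries, which was 0.925 to 1.06 times the coverage of *Myh1* and 15.3 to 16.7 times that of the row of *Myh2*. Of the 346 windows of 75 bases in those 2 exons, 260 (75.1%) are also in *Myh1*. The level of *Myh2* relative to *Myh1* thus depends on how such reads were assigned.

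Taking the family as a whole, the summed level of the 8 members was 3443, 3606 and 2994 CPM in the control libraries and 2254, 2162 and 2388 CPM in the *Phf2* KO libraries, or 67.8% of the control mean. Without *Myh3* the sum was 882, 832 and 707 CPM against 409, 372 and 424 CPM, or 49.8%. Markers of differentiated muscle moved in the same direction. Of the 10 myotube markers tested, 7 were called lower and 0 higher by the edgeR test, against 3.26% and 3.22% of all genes tested. The median log2 fold change of the 10 was −0.42. Their summed level was 6141 to 7327 CPM in the control and 4973 to 5688 CPM in the *Phf2* KO libraries. *Ckm*, the muscle creatine kinase, had the largest fall of them (202 ± 20.0 against 117 ± 6.98 CPM, SD, n = 3; edgeR adjusted p = 8.70e-05).

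Divided by the summed myotube markers of the same library, the family total without *Myh3* was 0.120, 0.116 and 0.115 in the control libraries and 0.0720, 0.0747 and 0.0830 in the *Phf2* KO libraries, 65.4% of the control mean. *Myh8* divided in the same way was left at 38.9% of the control mean. The family total with *Myh3* came to 0.470, 0.501 and 0.487 against 0.396, 0.435 and 0.467, which is 89.0%. The groups did not overlap for any of these 3 ratios, although for the last the highest *Phf2* KO library was close to the lowest control library. No test was made of these sums. *Acta1*, *Actc1* and *Des* weigh most in the marker sum, at 2491, 1094 and 1088 of 6889 CPM in the control mean. They stood at 77.8%, 78.95% and 77.5% of control, whereas *Ckm* stood at 58.0%. The percentages above therefore depend on which markers carry the sum.

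Markers of other cell states were measured beside this. Over all genes tested, 3.26% were called lower and 3.22% higher. Of 5 tested markers of undifferentiated myoblasts, 1 was called higher (*Id2*) and 0 lower by the edgeR test. The summed level was 150 to 184 CPM in the control and 212 to 229 CPM in the *Phf2* KO libraries. Most of that sum was *Id3* (96.8 against 137 CPM, group means), which was higher without overlap but not called. *Id1* was also higher without overlap and not called, while the groups of *Myf5* and *Pax7* overlapped. Of 6 cycling cell markers 0 were called, and their sums overlapped (205 to 227 against 201 to 220 CPM). Among 5 fibroblast markers, which C2C12 cells also express, 2 collagen genes were called higher (sums of 10512 to 11071 against 11716 to 12605 CPM). These were *Col1a1* (4487 against 5167 CPM, group means) and *Col1a2* (5732 against 6377 CPM), which made up most of the sum. *Dcn* (log2 fold change 0.21) and *Pdgfra* (0.14) were higher and *Lum* (−0.21) lower. None of them was called, and their groups overlapped. Of 5 smooth muscle markers 2 were called higher, *Acta2* and *Tagln* (sums of 3384 to 3467 against 3726 to 3907 CPM). Most of that sum was *Acta2* (3029 against 3400 CPM, group means). The other 3 were lower but not called: *Cnn1* (log2 fold change −0.52, groups without overlap), *Smtn* (−0.098) and *Myh11* (−0.062). Of 3 tested adipocyte markers 1 was called higher, *Lpl* (sums of 20.96 to 24.4 against 25.6 to 30.5 CPM), with *Plin1* at 0 throughout. *Fabp4* (−0.75) and *Pparg* (−0.051) were lower but not called. The part of these shifts in the myosin values was not tested.

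The RNA of genes whose proteins build the thick filament with myosin was measured beside this. Of 13 tested thick filament partners, the edgeR test called 9 lower and 0 higher, against 3.26% and 3.22% of all genes tested. The median log2 fold change of the 13 was −0.58. The largest falls among those called were *Mybpc1*, the slow myosin-binding protein C (10.8 ± 0.889 against 5.96 ± 1.58 CPM, SD, n = 3; log2 fold change −0.86), *Myl4*, the embryonic and atrial essential light chain (488 ± 53.8 against 288 ± 21.6 CPM; −0.76), and *Myom3*, an M-band protein (66.0 ± 4.35 against 39.1 ± 3.96 CPM; −0.76). *Myl6b*, a further essential light chain, had a log2 fold change of −0.61.

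Myosin needs dedicated chaperones to fold, and ubiquitin ligases of the MuRF family take it down. Of 8 genes on this list, 5 were called lower and 0 higher by the edgeR test, against 3.26% and 3.22% of all genes tested. *Unc45b*, the myosin chaperone of striated muscle, measured 74.2, 68.6 and 61.1 CPM in the control libraries and 43.8, 41.5 and 41.3 CPM in the *Phf2* KO libraries (log2 fold change −0.69, SE 0.068; edgeR adjusted p = 5.80e-05). The MuRF genes *Trim55*, *Trim54* and *Trim63* were called lower with log2 fold changes of −0.52, −0.50 and −0.38, and *Smyd1*, a methyltransferase that works with the chaperones, with −0.36. The list therefore held genes for both the making and the removal of myosin among those that fell. *Fbxo32*, on the same list, was higher without overlap (log2 fold change 0.15) but not called. *Hsp90aa1* (0.03) and *Unc45a* (−0.01) were not called, and their groups overlapped.

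Of 31 tested regulators of myosin genes, the edgeR test called 7 lower and 0 higher, against 3.26% and 3.22% of all genes tested. The median log2 fold change of the 31 was −0.09. *Mef2c*, a MEF2 transcription factor, had the largest fall among the 7. It measured 35.0, 43.1 and 32.4 CPM in the control libraries and 11.9, 11.6 and 15.0 CPM in the *Phf2* KO libraries (log2 fold change −1.52, SE 0.13; edgeR adjusted p = 6.97e-05). The other called members named by rule were *Klf5* (−0.58), *Tead4*, a factor that binds MCAT sites (−0.49), *Myog*, which encodes myogenin (−0.34), and *Tbx15* (−0.33). *Mef2d* and *Mef2a* were also called lower, by 0.28 and 0.21 on the log2 scale. Measured only in RNA, these falls say nothing of binding at the upstream windows printed above.

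Over the 6 libraries, 5 genes had the highest Pearson correlation of their log2 CPM with the log2 family total, out of the 10915 genes that averaged 5 CPM or more. They were *Eef1b2* (r = 0.9986), *Trim55* (0.998), *Srl* (0.997), *Usp2* (0.997) and *Ppfia4* (0.996). With 6 points that fall into 2 groups these values are a description, and 225 genes had r over 0.95. *Eef1b2*, a translation elongation factor subunit, was not past the threshold itself (373 against 343 CPM; edgeR adjusted p = 0.0854), so that it followed the family total in pattern but over a small range.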

How the data were processed

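RNA sequencing of 6 libraries was used, 3 of control and 3 of *Phf2* KO cells, grouped by the labels. Alignment to mm10 (HISAT2) and estimated counts (StringTie) are the authors' work; versions are not given in the sources used here. The deposited matrix holds estimated counts, not scaled by library size, which follow coverage times length over 75 and are not tallies of reads, so they overstate the number of independent reads. The deposited per-library tables hold TPM, a signal the authors scaled within each library, and coverage, which is the mean depth at each base as the authors obtained it. They list each transcript under reference and assembled rows, and reference rows were used unless an assembled locus is named.

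The count test was edgeR 4.0.16 under R 4.3.3 (filterByExpr, minimum count 10; TMM; quasi-likelihood test on all 17310 genes; Benjamini-Hochberg adjustment; threshold 0.05). The procedure was tested on simulated data. DESeq2 1.42.0, edgeR's exactTest and limma 3.58.1 on log2(TPM + 1) or log2(TPM + 0.1) were alternatives, with other scalings and filters, counts divided by 4, a replicate block and leaving out each library. Shares and ratios were compared by two-sided exact permutation tests. Identity and shared windows came from the longest coding transcripts of GENCODE M21 (Biopython 1.88), and upstream sequences from RefSeq (GRCm38.p6).

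The genes named were the 8 members, *Phf2*, other class II myosin genes, up to 5 called genes of each list with the largest change, the genes inside the members' clusters and the 5 genes closest in pattern to the family total (1 gene under this rule is not reported here); *Mef2a* and *Mef2d*, genes named as absent and the further motif and locus features were added after their values were seen. Members and lists were chosen with earlier results of these data known. Libraries with the same replicate number in the labels varied alike. Over 10923 genes, deviations from the group mean correlated at 0.183, 0.345 and 0.234 between libraries of the same number. The highest value between others was 0.09. Deviations from a group mean cancel within the group, so these values are not independent of each other. The sources describe no pairing, and the block was an alternative.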

Additional observations from a re-analysis of the deposited data

How the results depend on the processing

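All 8 members kept their direction in all 16 settings of the gene-by-gene comparison. The number of members called lower was 8 with exactTest, DESeq2, DESeq2's size factors and a filter of at least 1 CPM in 3 libraries, 7 with library size alone and with counts divided by 4, and 6 without a filter and with the replicate block, which changed the calls of *Myh4* and *Myh7* and no other. It was 1 with limma on log2(TPM + 1) and 2 with limma on log2(TPM + 0.1), where 127 and 153 genes in all were called against 1122, and the cause was not tested. Leaving out single libraries gave 5 to 8 members and 468 to 1039 genes in all, with 5 members without *Phf2* KO library 1 or 3 and 468, 577 and 613 genes without control library 2, *Phf2* KO library 2 and *Phf2* KO library 3.

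On TPM, leaving out single libraries gave differences for *Myh7* of −1.58 to 0.549 percentage points in share and −0.933 to 0.155 in log2 ratio to *Myh3*, and for *Myh6* of −0.203 to 0.113 and −0.618 to 0.0439. The sign was reversed for *Myh7* without control library 1, in both measures. It was reversed for *Myh6* in share without control library 2 (0.0862), *Phf2* KO library 1 or *Phf2* KO library 2 (0.0848), and in ratio without *Phf2* KO library 1. No reversal occurred on counts or coverage with all libraries. In the ratios paired by replicate number, the exact permutation p was at least 0.25, the smallest that 3 pairs can give. Shares from assembled loci were not run, because the loci joined several members. Depth limits the low members most: *Myh7b* held 241 to 685 estimated counts per library.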

Other observations

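The genes that lie inside the members' spans or between them were read as counts. The noncoding gene *2310065F04Rik*, between *Myh3* and *Myh2* on the opposite strand (chr11:67112461-67120080), held 39, 42 and 57 estimated counts in the control libraries and 17, 12 and 19 in the *Phf2* KO libraries. The groups did not overlap, and the log2 fold change of −1.59 (SE 0.46) missed the threshold (edgeR adjusted p = 0.0537). The antisense gene *Myhas*, which runs through the space between *Myh1* and *Myh4*, held 14, 36 and 29 counts against 12, 20 and 8, and *9430073C21Rik*, antisense to the end of *Myh2*, held 23, 28 and 6 against 12, 15 and 9, both with overlapping groups. *Mir6923*, a microRNA gene within *Myh3*, held 21, 28 and 26 counts against 8, 22 and 11, with overlapping groups.

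The microRNA genes hosted by *Myh6*, *Myh7b* and *Myh7* were at or near 0, in libraries prepared from polyadenylated RNA. *Mir208a* in *Myh6* and *Mir499* in *Myh7b* held 0 counts in every library, and *Mir208b* in *Myh7* held 2 counts in control library 1 and 0 elsewhere. *Mhrt*, a noncoding gene antisense to *Myh7* that spans the short assembled locus, held 3 counts in *Phf2* KO library 3 and 0 in the other 5 libraries.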
